A study of Mus musculus with 9 samples.

Results

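Ribosome biogenesis factors are the nucleolar proteins and enzymes that fold, modify, cut and package ribosomal RNA into the 40S and 60S subunits. The 40 genes considered here are nucleolar factors with this role. They were listed by name and not by their values, though earlier results of these data were known. Of them, 38 were measured among 17097 genes, while Tsr1 and Gnl3 lack a probe set annotated to them alone and are not analysed. Where a gene had several probe sets annotated to it alone, the brightest over the 9 arrays stands for it. The arrays hold OVA-specific CD8+ T cells, that is, cells that recognise a model antigen, sorted from the spleens of C57BL/6 mice at day 9 after infection with Listeria monocytogenes. The 4 WT samples came from mice with floxed Tsc1 alleles and no cre. The 5 Tsc1-/- samples came from mice with the same floxed alleles and a Granzyme B-cre transgene, which is switched on in activated cytotoxic T cells. Every Tsc1-/- sample and no WT sample carried cre, so an effect of cre and one of Tsc1 loss cannot be told apart. Nothing in the labels ties each sample to its own mouse, and the p-values therefore speak only of the spread among these 9 samples.

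Tsc1 belongs to the complex that holds back mTORC1, a kinase complex that adjusts protein synthesis and growth to nutrient and receptor signals. Ribosome building is among the best known outputs of mTORC1 and of the transcription factor Myc: both raise transcription by RNA polymerase I, and Myc binds the promoters of many nucleolar genes. Growth of ribosome number normally accompanies division, and in activated T cells nucleolar genes rise with entry into the cycle. The nucleolar genes are therefore set beside genes of S phase and mitosis from the same arrays.

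Of the 38 measured factors, 1 rose and 0 fell in Tsc1-/- (limma, adjusted p under 0.05 over all genes), where 1.28% of all genes passed, 0.971% as higher and 0.31% as lower. The gene that rose was Nhp2, a core protein of the box H/ACA particles that convert uridine to pseudouridine in ribosomal RNA. The median difference of the 38 genes, Tsc1-/- minus WT, was 0.06 on the log2 scale, against -0.01 over all 17097 genes and 0.63 over the 46 measured genes of the S phase and mitosis lists. The 38 differences ran from -0.14 to 0.42, and 25 were positive. That small surplus depended on scaling. After quantile normalization 19 of 38 were positive with a median of -0.00017. Without each array's trend on level and gene length 18 were positive with a median of -0.01. After median centring the surplus was larger, with 28 positive and a median of 0.09.

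The intervals of the brightest probe set of each gene were narrow enough to bound the changes. The 95% interval (limma, unadjusted) lay inside a 1.5-fold change in both directions for 37 of the 38 genes, the exception being Nhp2, whose upper bound was 0.60. In all 38 the interval ended below 0.63, the median of the division genes. That median comes from the same arrays and was 0.53 to 0.71 with 1 array left out. The intervals do not include its own uncertainty. Leaving out 1 array at a time, the intervals of 35 to 38 genes ended below the division median of the same fit. Once macrophage marker level entered the fit, the division median was 0.37 and 17 of the 38 intervals ended below it. Among dimmer probe sets, a Utp18 probe set (0.28 to 1.14) and an Imp4 probe set (0.12 to 0.64) had 95% intervals that ended above 0.63 (limma, unadjusted).

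**Figure D1:**
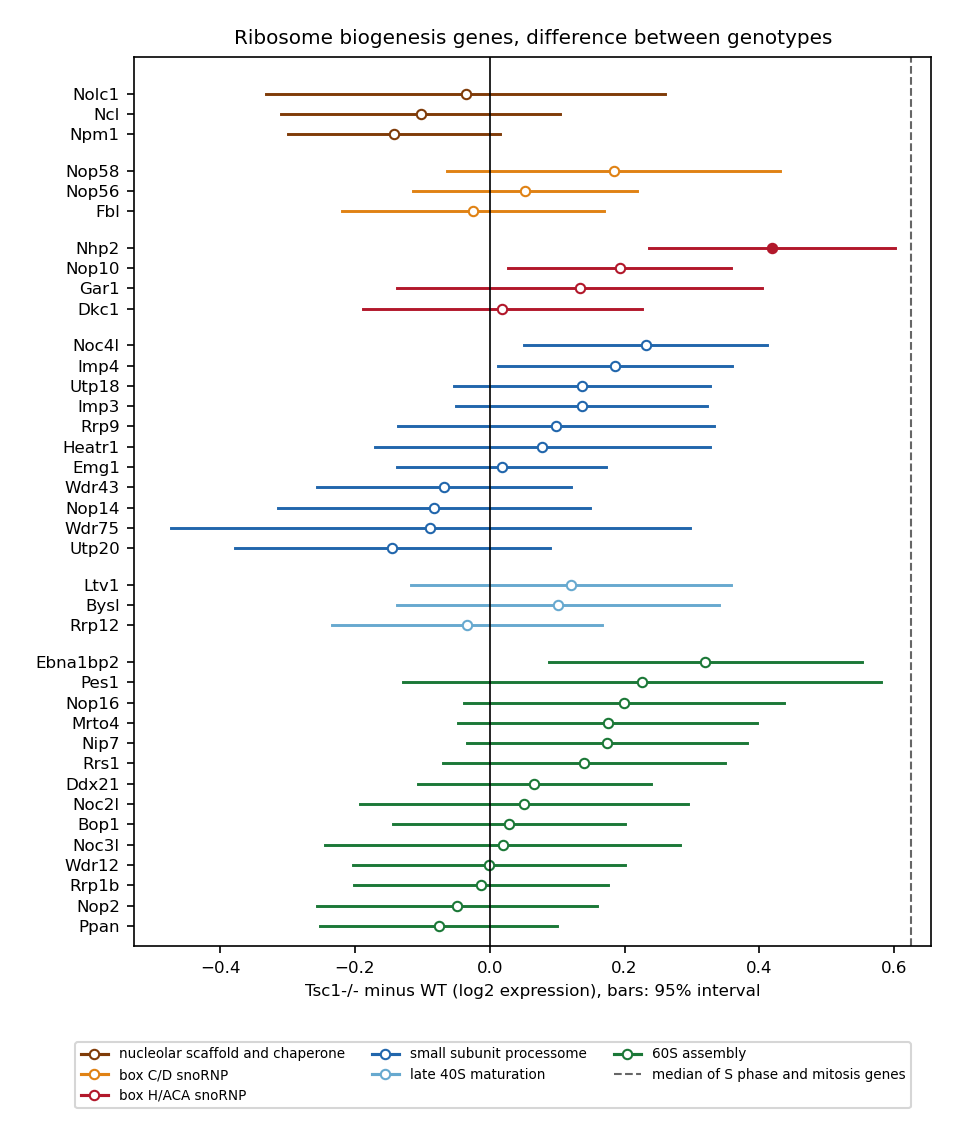
Difference between Tsc1-/- and WT (log2 expression, x axis) for each of the 38 measured ribosome biogenesis genes, with its 95% interval and coloured by role; the filled point is the gene past the threshold. Nhp2 at 0.42 is the only filled point, and every interval ends left of the dashed line at 0.63, the median of the S phase and mitosis genes.

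In the whole series the arrays were alike (Pearson r between 0.983 and 0.991 for pairs of opposite genotype over all genes), and limma called 166 genes higher and 53 lower, with higher genes 75.8% of the calls as deposited, 55.8% after quantile normalization and 55.6% without the trend on level and length. Tsc1 itself fell short of the threshold, at 7.66 ± 0.09 (SD) over the 4 WT arrays against 7.40 ± 0.09 (SD) over the 5 Tsc1-/- arrays, without overlap (adjusted p = 0.114, limma). That is the brightest of 3 Tsc1 probe sets, and the other two differed by -0.01 and -0.32, both with overlap. Where they lie relative to the floxed exons is not known here, so these values are no direct check of the deletion. T cell markers were bright, with Cd8a at 12.08 in WT and 12.10 in Tsc1-/-, and 6 of the 8 measured markers had a positive difference, 1 of which passed: Gzmb, the gene of the cytotoxic protease granzyme B, rose by 0.58 (adjusted p = 0.0339, limma). Of the 6 measured NK cell markers 1 passed, Eomes, a transcription factor that CD8+ T cells also express, which was lower (-0.58, adjusted p = 0.0359, limma). Macrophage and monocyte markers were lower in 12 of 13 cases, 1 of them, Spic, past the threshold (-0.69, adjusted p = 0.0339, limma), and the mean level of that list was 6.37 to 7.18 in WT and 6.22 to 6.54 in Tsc1-/-. With that level as a covariate, the median difference of the 38 ribosome biogenesis genes was 0.07. In sorted cells measured in bulk, fewer cells of a kind and less RNA per cell cannot be told apart.

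The box H/ACA particle had 4 of 4 genes with a positive difference, and it is where the one call lies. Nhp2 read 9.38, 9.59, 9.42 and 9.29 in WT replicates 1 to 4 and 9.77, 9.95, 9.73, 9.86 and 9.88 in Tsc1-/- replicates 1 to 5. All 5 Tsc1-/- arrays lay above all 4 WT arrays. The group means were 9.42 ± 0.13 (SD, n = 4) and 9.84 ± 0.09 (SD, n = 5), a rise of 0.42 (SE 0.08, 95% interval 0.24 to 0.60, adjusted p = 0.0375, limma), which is 1.34-fold. The Nhp2 probe set used is of the type marked s, and the further one is the unique probe set of the gene. That unique probe set also separated the groups, with a difference of 0.36 (SE 0.09), but missed the threshold when probe sets were tested singly (adjusted p = 0.0912, limma). The call is fragile. It ended after quantile normalization (0.35, adjusted p = 0.0662), without the trend on level and length (0.30, adjusted p = 0.112), with macrophage marker level in the fit (0.54, adjusted p = 0.258), and when any 1 array other than WT replicate 4 or Tsc1-/- replicate 1 was left out (adjusted p = 0.0611 to 0.132; all limma).

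Nop10, the small protein that bridges Nhp2 and the catalytic subunit, read between 10.86 (replicate 2) and 11.04 (replicate 3) in WT, and 11.16, 11.06, 11.26, 11.20 and 11.17 in Tsc1-/-. The groups did not overlap, by a margin of hundredths of a log2 unit, and the difference of 0.19 (SE 0.08, 95% interval 0.03 to 0.36) did not pass (adjusted p = 0.218, limma). Gar1, which is needed for substrate release, differed by 0.13 (95% interval -0.14 to 0.40). Dkc1, the pseudouridine synthase, differed by 0.02 (95% interval -0.19 to 0.23). The mean level of the 4 genes was 9.34 to 9.50 in WT and 9.57 to 9.73 in Tsc1-/-. That mean includes Nhp2, the gene that was called, while Gar1 and Dkc1 each overlapped between the genotypes.

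The 3 genes of the box C/D particle, which adds methyl groups to ribose in ribosomal RNA, differed little between genotypes. Nop58, a scaffold protein, read 8.20, 8.07, 8.26 and 8.32 in WT and 8.77, 8.17, 8.31, 8.37 and 8.36 in Tsc1-/-. Only Tsc1-/- replicate 1 stood clear of the WT range by more than 0.1, and the difference was 0.18 (95% interval -0.06 to 0.43, adjusted p = 0.438, limma). Nop56, its partner, differed by 0.05 and Fbl, the methyltransferase, by -0.02 by its brightest probe set and 0.04 by the other.

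The 3 nucleolar scaffold and chaperone genes all had negative differences, and none passed. Npm1, the histone and ribosome chaperone nucleophosmin, read 11.84, 11.99, 11.93 and 11.85 in WT and 11.85, 11.78, 11.69, 11.75 and 11.74 in Tsc1-/-. Tsc1-/- replicate 1 lay inside the WT range and the other 4 Tsc1-/- arrays under it, and the difference was -0.14 (SE 0.07, 95% interval -0.30 to 0.02, adjusted p = 0.342, limma). A further Npm1 probe set separated the groups completely, at -0.23 (SE 0.08, adjusted p = 0.162, limma, over probe sets).

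Ncl, the gene of nucleolin, which binds nascent ribosomal RNA, read 8.59, 8.58, 8.60 and 8.46 in WT and 8.44, 8.21, 8.70, 8.46 and 8.45 in Tsc1-/-. Its groups overlapped, since Tsc1-/- replicate 3 was the highest of all 9 arrays, and the difference was -0.10 (95% interval -0.31 to 0.10). Nolc1, a chaperone of small nucleolar RNA particles, differed by -0.04, and its 2 dimmer probe sets by 0.11 and 0.09.

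**Figure D2:**
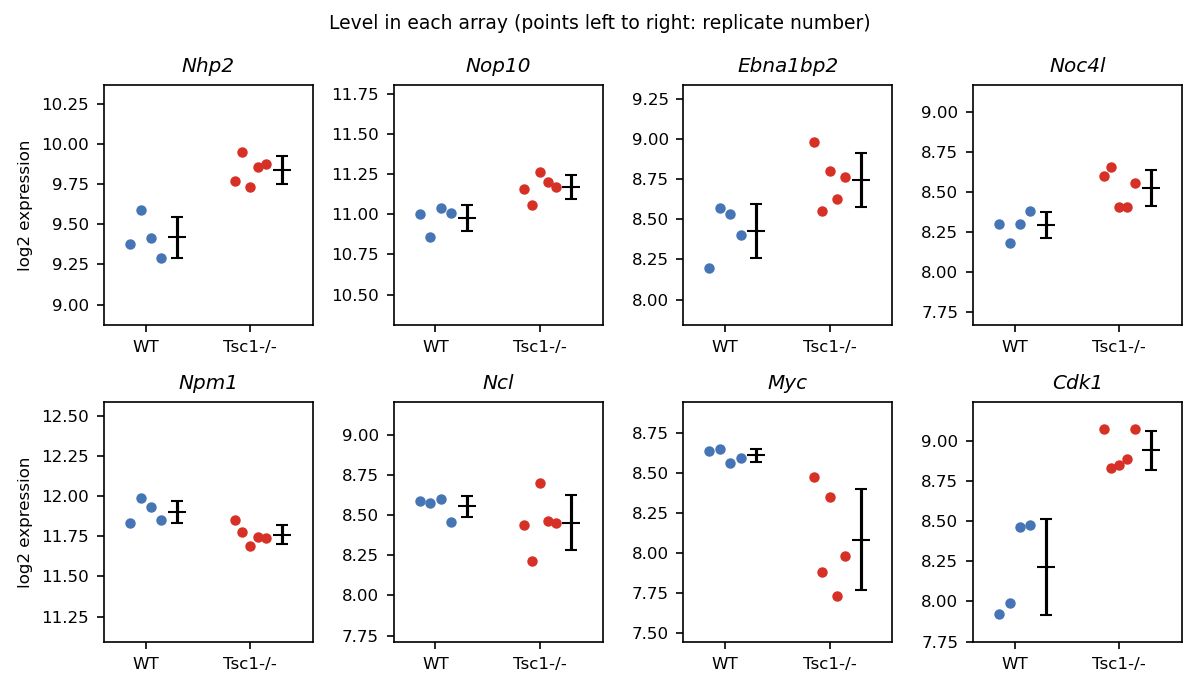
Log2 expression of 6 ribosome biogenesis genes and of Myc and Cdk1 in each array, with WT in blue (n = 4) and Tsc1-/- in red (n = 5); black bars are the mean ± SD and each panel spans the same height. Nhp2, Nop10, Noc4l and Cdk1 lie higher in Tsc1-/- without overlap, Myc lies lower without overlap, and Ebna1bp2, Npm1 and Ncl overlap.

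Among the 14 measured genes of 40S assembly, 9 had a positive difference, with a median of 0.09, and none passed (limma). At p under 0.05 with no adjustment, 2 of the 14 were higher and 0 lower (limma), where 9.83% and 7.34% of all genes were. Noc4l, which acts with Nop14 in nuclear 40S maturation, read 8.30, 8.18, 8.30 and 8.38 in WT and 8.60, 8.66, 8.40, 8.41 and 8.55 in Tsc1-/-. Its groups did not overlap, and the difference was 0.23 (SE 0.08, adjusted p = 0.175, limma). The brightest Noc4l probe set is of the type marked x, which can also detect related transcripts, and the unique probe set of the gene differed by 0.02 with overlap while the third differed by 0.21 without.

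The Imp4 gene, whose product holds the U3 small nucleolar RNA on its precursor, read 9.07, 9.16, 9.21 and 9.04 in WT and 9.40, 9.37, 9.23, 9.16 and 9.36 in Tsc1-/-. Tsc1-/- replicate 4 fell inside the WT range, and the difference was 0.19 (SE 0.08, adjusted p = 0.261, limma). Its partner Imp3 differed by 0.14, the U3 protein gene Rrp9 by 0.10, Utp18 by 0.14 and Heatr1, which also supports RNA polymerase I transcription, by 0.08. Emg1, a methyltransferase of 18S ribosomal RNA, differed by 0.02, within an interval of -0.14 to 0.17.

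The other 4 genes of the small subunit processome had negative differences. Utp20, a very large scaffold protein, read 7.20, 7.10, 7.51 and 7.25 in WT and 7.06, 7.26, 6.87, 7.28 and 7.13 in Tsc1-/-, a difference of -0.14 (95% interval -0.38 to 0.09, adjusted p = 0.529, limma). Its groups overlapped, with WT replicate 3 highest and Tsc1-/- replicate 3 lowest. Nop14 read 7.85, 7.98, 7.76 and 7.62 in WT and 7.94, 7.66, 7.47, 7.82 and 7.69 in Tsc1-/-, a difference of -0.08 with broad overlap. Wdr75 read 5.48, 4.53, 4.75 and 4.91 in WT and 5.09, 4.89, 5.04, 4.56 and 4.56 in Tsc1-/-. The WT arrays of that probe set alone spanned more than all Tsc1-/- arrays, and it is one of 2, with that of Nop16, whose mean lay below 6.34, the median over genes, so its difference of -0.09 (95% interval -0.47 to 0.30) is loosely measured. Wdr43, which like Wdr75 belongs to the module that first binds nascent ribosomal RNA, differed by -0.07. In late 40S maturation Ltv1 differed by 0.12, Bysl by 0.10 and Rrp12, a factor of nuclear export, by -0.03, with adjusted p between 0.621 and 0.891 (limma).

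Of the 14 measured genes of 60S assembly, 10 had a positive difference, with a median of 0.06, and none passed (limma). At p under 0.05 with no adjustment, 0 of the 14 were lower and 1 was higher (limma), where 7.34% and 9.83% of all genes were. That 1 was Ebna1bp2, an early 60S factor, which read 8.20, 8.57, 8.53 and 8.40 in WT and 8.98, 8.55, 8.80, 8.63 and 8.76 in Tsc1-/-. Tsc1-/- replicate 2 lay within the WT range and the other 4 above it, and the difference was 0.32 (SE 0.11, 95% interval 0.09 to 0.55, adjusted p = 0.147, limma). Nop16 read 5.99, 5.88, 6.13 and 6.00 in WT and 6.48, 6.26, 5.90, 6.24 and 6.12 in Tsc1-/-, a difference of 0.20 that overlapped and that its other probe set did not share (-0.11).

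The PeBoW complex, formed by Pes1, Bop1 and Wdr12 and needed to process 28S and 5.8S ribosomal RNA, showed no common shift. Pes1 read 7.40, 7.50, 6.87 and 7.44 in WT and 7.97, 7.35, 7.54, 7.17 and 7.63 in Tsc1-/-. Its difference of 0.23 (SE 0.16, 95% interval -0.13 to 0.58, adjusted p = 0.516, limma) rests on Tsc1-/- replicate 1 at the top and WT replicate 3 at the bottom, and its other probe set differed by -0.01. Bop1 differed by 0.03 (95% interval -0.14 to 0.20) and Wdr12 by -0.0014 (95% interval -0.20 to 0.20).

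Ppan read 8.33, 8.16, 8.09 and 8.31 in WT and 8.15, 8.04, 8.25, 8.12 and 8.16 in Tsc1-/-, a difference of -0.08 and the lowest of the 60S genes. Mrto4 and Nip7 each differed by 0.17, Rrs1, which helps to load the 5S particle, by 0.14, the RNA helicase gene Ddx21 by 0.07, Noc2l by 0.05 and Noc3l by 0.02. Rrp1b differed by -0.01 and Nop2, a cytosine methyltransferase of 28S ribosomal RNA, by -0.05. These 9 genes all overlapped between the genotypes.

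The groups did not overlap for 7.96% of all genes. Among the 38 they did not for 3 genes higher in Tsc1-/- (Nhp2, Nop10 and Noc4l), which is 7.89% of the 38 where 5.08% of all genes did so, and for 0 lower genes where 2.88% of all genes did. At an unadjusted p under 0.05, 5 were higher (13.2%, against 9.83% of all genes) and 0 lower (against 7.34%). These shares are near those of all genes. Several probe sets measured 22 of the genes, and their differences were all positive in 13, all negative in 2 and mixed in 7, and 1 of the 63 probe sets passed when probe sets were tested (limma).

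The mean level of the genes varied little between WT arrays and was highest in 1 Tsc1-/- array. Single genes varied more: their median SD over the WT arrays was 0.12, against 0.14 over all genes. The mean level of the 38 genes was 8.22, 8.26, 8.23 and 8.23 in WT and 8.43, 8.25, 8.25, 8.26 and 8.31 in Tsc1-/-. Tsc1-/- replicates 2 and 3 thus lay within the WT range, replicate 4 at its edge, replicate 5 slightly above and replicate 1 clearly above. Of the 38 genes, 15 had their highest value of all 9 arrays in Tsc1-/- replicate 1, and 32 lay there above their WT mean, with a median deviation of 0.18 from it where the median over all genes was -0.01. The other 4 Tsc1-/- arrays had 20 to 26 of 38 genes above the WT mean and median deviations of 0.01 to 0.09. Without replicate 1, the median difference between genotypes was 0.04 and Nhp2 was again the 1 gene past the threshold.

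**Figure D3:**
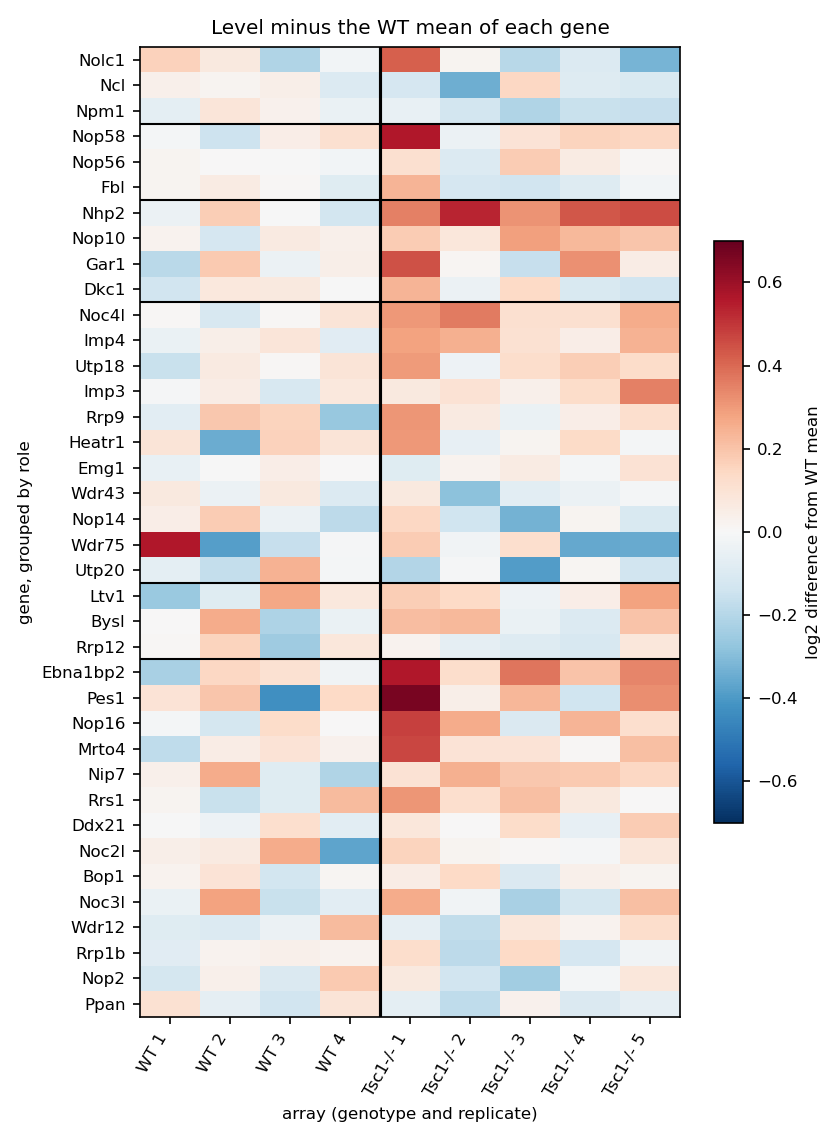
Level of each ribosome biogenesis gene in each array minus its WT mean (colour, log2 scale, red higher and blue lower), with genes in rows grouped by role and ordered by their difference, and the 4 WT arrays left of the 5 Tsc1-/- arrays. Red gathers in the column of Tsc1-/- replicate 1, where 15 of 38 genes have their highest value, and in the row of Nhp2, while most other rows mix both colours in both genotypes.

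Set beside these genes, the division genes shifted in every Tsc1-/- array. All 24 measured S phase genes and all 22 mitosis genes had a positive difference, with medians of 0.52 and 0.69. Of these, 4 S phase genes (16.7%) and 9 mitosis genes (40.9%) rose (limma), where 0.971% of all genes did. Mcm2, of the replicative helicase, read 7.79 to 8.39 in WT and 8.55 to 9.51 in Tsc1-/- and rose by 0.81 (SE 0.17, adjusted p = 0.0466, limma). Cdk1, the mitotic kinase, read 7.92 to 8.48 in WT and 8.83 to 9.08 in Tsc1-/- and rose by 0.73 (SE 0.13, adjusted p = 0.0322, limma). The other S phase genes past the threshold were Gins2 (0.77), Gins1 (0.87) and Rrm1 (0.67), and the mitosis gene with the smallest p was Espl1 (0.88).

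Within the genotypes, the mean S phase level was 7.84, 8.04, 8.19 and 8.38 in WT and 9.02, 8.59, 8.42, 8.67 and 8.57 in Tsc1-/-. It thus spanned 0.53 over the WT arrays, while the mean of the 38 ribosome biogenesis genes spanned 0.04 over the same arrays. Tsc1-/- replicate 1 was highest in both. With the mean level of the S phase and mitosis genes as a covariate, the median difference of the 38 genes was -0.02, 18 of them were positive, and 0 passed (limma; with no adjustment, 2 were higher and 0 lower at p under 0.05). Nhp2 differed by 0.54 (SE 0.15, adjusted p = 0.446, limma) in that fit, where 0 of all 17097 genes passed. The covariate itself did not overlap between the genotypes (7.63 to 8.21 in WT, 8.33 to 8.76 in Tsc1-/-). Its share of a difference and that of genotype therefore cannot be told apart well in that fit.

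**Figure D4:**
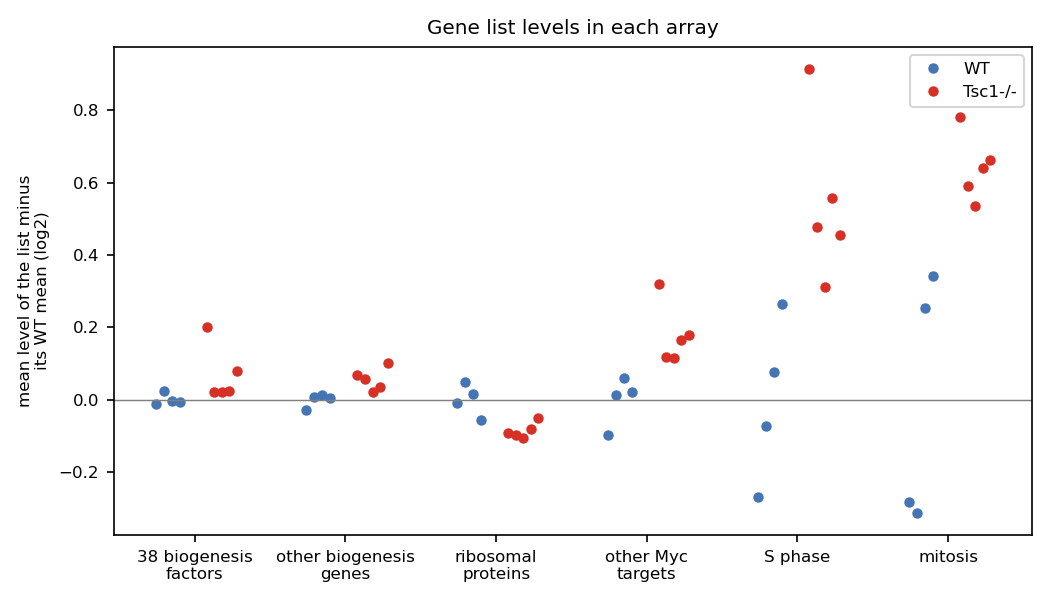
Mean log2 level of each gene list in each array minus the mean of its 4 WT arrays (WT blue, Tsc1-/- red, left to right by replicate number). The S phase and mitosis lists separate the genotypes by more than the ribosome biogenesis genes do, whose Tsc1-/- arrays other than replicate 1 lie within 0.1 of the WT mean (values as deposited; the small shift of the biogenesis genes is not there after quantile normalization).

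Myc, the transcription factor that drives many nucleolar genes, read 8.64, 8.65, 8.56 and 8.59 in WT and 8.47, 7.88, 8.35, 7.74 and 7.98 in Tsc1-/-, with no overlap and a wider spread in Tsc1-/-. The difference was -0.53 (SE 0.14, 95% interval -0.82 to -0.23), or 69.4% of the WT level, and missed the threshold (adjusted p = 0.0750, limma). It passed in 4 of 19 other fits, and of those that left out 1 array only without Tsc1-/- replicate 1 (-0.62, adjusted p = 0.0398), while the other 8 gave adjusted p between 0.0737 and 0.194 (limma). Tsc1-/- replicate 1, where the mean level of the ribosome biogenesis genes was highest (8.43), had the highest Myc level of the Tsc1-/- arrays. The other arrays did not share this order. Tsc1-/- replicate 5 was next in the biogenesis mean (8.31), with Myc at 7.98. Tsc1-/- replicate 3 was next in Myc (8.35), with a biogenesis mean of 8.25. Every WT array had a higher Myc level than Tsc1-/- replicate 1 but a lower biogenesis mean (8.22 to 8.26). Of the other 9 measured genes of the Myc network none passed, and Mxd1, which competes with Myc for their shared partner, differed by 0.23 (adjusted p = 0.195, limma).

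Genes known as Myc targets outside the nucleolus were positive in 17 of 20 cases, with a median of 0.16. With no adjustment, 9 of the 20 were higher and 0 lower at p under 0.05 (limma), where 9.83% and 7.34% of all genes were. Without overlap, 4 of the 20 were higher, where 5.08% of all genes were. Nme1, a nucleoside diphosphate kinase, rose by 0.46 (SE 0.09, adjusted p = 0.0359, limma), from 9.67 ± 0.15 (SD, n = 4) to 10.12 ± 0.07 (SD, n = 5), and the other 19 did not pass. Ncbp1, of the nuclear cap-binding complex, differed by 0.36 (adjusted p = 0.0761), Cdk4, a G1 kinase, by 0.31 (adjusted p = 0.0784) and Odc1, the first enzyme of polyamine synthesis, by 0.43 (adjusted p = 0.116; all limma). The Nme1 call ended in 11 of 19 other fits, among them quantile normalization (0.40, adjusted p = 0.0564), the fit without the trend on level and length (0.36, adjusted p = 0.0770) and those without WT replicate 1 or 2 or Tsc1-/- replicate 2, 3, 4 or 5 (adjusted p = 0.0514 to 0.113; all limma).

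In the RNA polymerase I list, 9 of 15 measured genes were positive with a median of 0.06, and 1 rose. That was Rrn3, the initiation factor that makes RNA polymerase I competent to start and that mTORC1 is known to activate. It read 7.45, 7.61, 7.63 and 7.50 in WT and 7.97, 7.997, 7.80, 7.88 and 7.98 in Tsc1-/-, with no overlap. The rise was 0.38 (SE 0.08, 95% interval 0.21 to 0.55, adjusted p = 0.0398, limma), and the call ended when any 1 array was left out (adjusted p = 0.0514 to 0.1398, limma) and after quantile normalization (0.32, adjusted p = 0.0710, limma). Polr2l, a small subunit shared by the polymerases, differed by 0.20 (adjusted p = 0.217, limma).

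A wider list of 81 further ribosome biogenesis genes, 73 of them measured, resembled the 38: 50 were positive, the median was 0.06, and none passed (limma; with no adjustment, 8 were higher and 2 lower at p under 0.05). Eif6, which keeps 60S subunits from joining early, differed by 0.27 (adjusted p = 0.131) and Nop53, a factor of 28S and 5.8S processing, by -0.31 (adjusted p = 0.106; all limma). Nop53 read 11.08 to 11.43 in WT and 10.80 to 11.07 in Tsc1-/-, without overlap, and passed as lower in the fits without dim genes and with a variance trend.

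The ribosomal proteins themselves, the cargo of this pathway, went slightly the other way: 14 of 15 differences were below 0, with a median of -0.10, and none passed (limma). At p under 0.05 with no adjustment, 0 were higher and 0 lower (limma), where 9.83% and 7.34% of all genes were. Without overlap, 4 of the 15 were lower, where 2.88% of all genes were. Their mean levels were 11.55 to 12.96, and the brightest of all genes had 13.59. Rpl3 differed by -0.15 and Rplp0, of the ribosomal stalk, by -0.12. The list's median stayed below 0 in each of the 19 other fits, between -0.13 and -0.05.

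**Figure D5:**
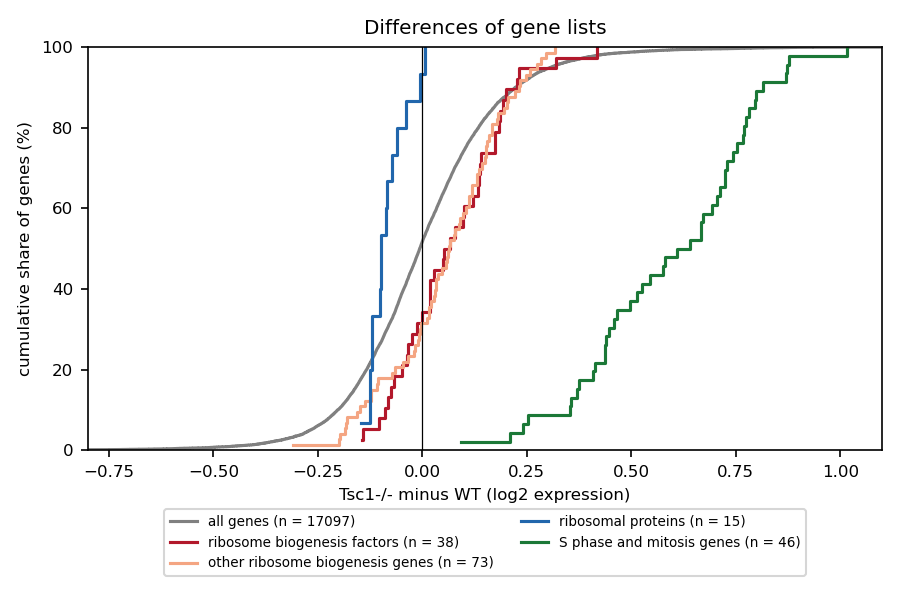
Cumulative share of genes (y axis, %) by difference between Tsc1-/- and WT (x axis, log2 scale, cut at -0.8 and 1.1) for all genes, the ribosome biogenesis genes, the other ribosome biogenesis genes, the ribosomal proteins and the S phase and mitosis genes. Both biogenesis curves run close to that of all genes with medians of 0.06 as deposited (-0.00017 for the 38 genes after quantile normalization), the ribosomal proteins lie left at -0.10 and the division genes right at 0.63.

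The promoters were searched for CACGTG, the E-box to which Myc and its partner bind, in windows from 250 bases before to 50 after each start (RefSeq, GRCm38.p6). The motif reads the same on both strands. Windows were found for 35 of the 40 listed genes, and 8 of these held it (22.9%), against 10.2% of the 13605 measured genes with a window. The 8 were Imp4, Ltv1, Nop2, Pes1, Tsr1, Utp18, Utp20 and Wdr43. The 7 of them measured had differences of -0.14 to 0.23 with a median of 0.12, and the 26 without the motif had differences of -0.10 to 0.42 with a median of 0.07, so both sets spanned both signs. The windows of 4 genes are given below, for Nhp2 as the gene that rose, Imp4 and Pes1 as the motif holders with the highest differences and Utp20 as the one with the lowest. They lie at chr11:51619523-51619822 (plus strand) for Nhp2, chr1:34439579-34439878 (plus strand) for Imp4, chr11:3963725-3964024 (plus strand) for Pes1 and chr10:88826765-88827064 (minus strand) for Utp20. Each reads 5′ to 3′ on the strand of the gene, and capitals mark CACGTG.
Nhp2: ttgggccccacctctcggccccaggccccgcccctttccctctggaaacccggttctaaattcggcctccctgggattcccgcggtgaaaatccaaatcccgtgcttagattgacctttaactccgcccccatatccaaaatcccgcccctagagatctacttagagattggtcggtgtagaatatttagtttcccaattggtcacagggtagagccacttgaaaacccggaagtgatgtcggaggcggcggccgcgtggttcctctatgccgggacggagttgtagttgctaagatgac
Imp4: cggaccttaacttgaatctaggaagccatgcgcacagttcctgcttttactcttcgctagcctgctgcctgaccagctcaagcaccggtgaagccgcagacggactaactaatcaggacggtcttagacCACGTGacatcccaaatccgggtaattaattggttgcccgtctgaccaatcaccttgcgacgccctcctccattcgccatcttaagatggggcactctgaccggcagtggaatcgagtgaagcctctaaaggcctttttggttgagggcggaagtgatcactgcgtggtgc
Pes1: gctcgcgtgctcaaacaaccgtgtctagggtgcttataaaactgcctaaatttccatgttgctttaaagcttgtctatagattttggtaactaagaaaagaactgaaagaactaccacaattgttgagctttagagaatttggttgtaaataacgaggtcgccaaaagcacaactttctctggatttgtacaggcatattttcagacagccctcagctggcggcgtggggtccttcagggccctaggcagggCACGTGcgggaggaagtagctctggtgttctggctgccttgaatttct
Utp20: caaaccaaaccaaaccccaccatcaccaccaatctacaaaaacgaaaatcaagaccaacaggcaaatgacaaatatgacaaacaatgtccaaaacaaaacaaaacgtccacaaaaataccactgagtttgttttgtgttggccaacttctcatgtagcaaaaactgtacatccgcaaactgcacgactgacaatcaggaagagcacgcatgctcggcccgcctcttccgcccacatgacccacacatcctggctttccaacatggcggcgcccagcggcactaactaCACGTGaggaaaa

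The Nhp2 window holds no CACGTG. In Imp4 the motif begins 121 bases before the start, in Pes1 at base 3 of the transcript and in Utp20 at base 38. The genes that share the motif thus differ in its place and in the sign of their difference, from 0.23 in Pes1 to -0.14 in Utp20, and neither of these differences passed.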

How the data were processed

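Each sample has 1 array, and the authors deposited log2 values made with RMA; Partek 6.5 is also named, per the submitters' processing notes. RMA gives all arrays nearly one distribution, which hides a shift common to most genes. The input was 12 ng of RNA, per the labels' protocols. Options and filters are not given in the sources used.

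Of 45037 probe sets, 28898 had 1 gene in the platform annotation, 551 had several and were not used, and the other 15588 have no name here. Current symbols came from the GRCm38.p6 RefSeq table by Entrez identifier (28689 matched), giving 17097 genes. Genotypes were compared with limma 3.58.1 (lmFit, eBayes) in R 4.3.3, fitting genotype alone; p-values are two-sided, with Benjamini-Hochberg adjustment over the 17097 genes. The fit was tested on simulated data. Arrays give no depth, and their number limits the precision. Promoter windows came from RefSeq and figures from Python 3.11.15.

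Members, lists and tests were chosen with earlier results of these data known. Arrays are given for members past the threshold and for the 6 highest and 6 lowest differences. Tsc1 and Myc are always given, Cdk1 and Mcm2 stand as examples of division genes whatever their p, and other genes of the comparison lists were taken by smallest p. Imp4, Nop58, Ncbp1, Cdk4, Odc1 and Polr2l were added after their values were seen. As alternatives, probe sets of each gene were averaged, dim genes (mean below 6.34) were left out, or the fit used quantile normalization, median centring, removal of each array's loess trend (span 0.3; missing lengths set to the median), array weights, robust estimation with a variance trend, a replicate block, 2 covariates, another threshold, or all arrays but 1. The neutrophil, erythroid, dendritic, B and NK cell marker lists had median differences of -0.34, -0.12, -0.26, -0.42 and -0.19.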

Additional observations from a re-analysis of the deposited data

Results flagged for a closer look

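In 6 of 110 groups of arrays examined, 1 array stood far from the others of its genotype, and chance gives about 1 in 20. For ribosome biogenesis genes these were Heatr1 in WT replicate 2 (7.11, nearest other WT array 7.55), Pes1 in WT replicate 3 (6.87, nearest 7.40), Ncl in WT replicate 4 (8.46, nearest 8.58), Rrp1b in WT replicate 1 (7.90, nearest 8.003) and Imp3 in Tsc1-/- replicate 5 (9.25, nearest 9.03). The other was Nme1 in Tsc1-/- replicate 3 (10.01, nearest 10.14). The flags fell in 6 different arrays, and none was in Tsc1-/- replicate 1.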

How the results depend on the processing

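The number of all genes called was 219 as deposited, 682 with dim genes left out, 77 after quantile normalization, 401 after median centring, 99 without the trend on level and length, 680 with a variance trend and robust estimation, 465 with array weights and 738 at an adjusted p under 0.1, and 2 to 456 with 1 array left out. It was 0 with the replicate block, the macrophage marker level or the division level as a term (limma; 2354, 1651 and 1424 genes at p under 0.05 with no adjustment). Of the ribosome biogenesis genes, Nhp2 passed alone or none did: the count was 0 after quantile normalization, without the trend, with the replicate block (0.41, adjusted p = 0.154 for Nhp2) and with either covariate, and 0 to 1 with 1 array left out. Arrays that share a replicate number did not deviate together (correlations of -0.10 to 0.09), so the numbers were not taken as pairs, and the block leaves Tsc1-/- replicate 5 without a partner. Of the other ribosome biogenesis genes 1, Nop53, passed with dim genes left out and with a variance trend. The median difference of the 38 genes was -0.013 without the trend and -0.019 with the division level, and 0.04 to 0.08 with 1 array left out. Among the named genes, Nop16 (-0.11), Ncl (0.019) and Wdr75 (0.041) changed sign with the division level as a covariate, Nop14 (0.067) with the macrophage level, and Wdr75 (0.10) without WT replicate 1, where its lowest value with 1 array left out was -0.22. The cause was not tested. Cdk1 and Mcm2 kept their direction in all 19 other fits and passed in 10 and 6 of them.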

Other observations

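Some dimmer probe sets of the ribosome biogenesis genes differed more than the brightest one. A Utp18 probe set with a mean of 4.00 differed by 0.71 (SE 0.20, adjusted p = 0.108 over probe sets, limma), against 0.14 for the brightest, and an Imp4 probe set with a mean of 6.24 differed by 0.38 (SE 0.12, adjusted p = 0.141), against 0.19. Noc3l had 0.22 at a mean of 5.40, against 0.02. None passed the threshold.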
